A study of Mus musculus with 4 samples.

Results

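The genes carried by the mitochondrial genome itself, rather than by the nucleus, were examined in the livers of WT and *Usp21* KO mice. They were chosen by name, as every gene whose symbol starts with "mt-". The GENCODE M21 annotation of GRCm38 holds 37 such genes on the mitochondrial chromosome, of which 13 encode proteins, 2 encode ribosomal RNAs (rRNAs) and 22 encode transfer RNAs (tRNAs). All 13 protein-coding genes were among the 35739 genes of the transcript abundance table (TPM, the share of transcripts corrected for their length, scaled to a fixed total), and 0 rRNA and 0 tRNA genes were. All 37 were among the 55335 genes of a separate table of scaled read counts (CPM, counts scaled to library size), so the rRNA and tRNA genes are described from that table. The choice used no measured value.

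Liver RNA was sequenced from WT replicates 2 and 3 and from *Usp21* KO replicates 1 and 3, which gives 2 libraries per genotype and 4 in all. *Usp21* encodes a ubiquitin-specific protease, and the KO mice lack exons 3 and 4 of the gene in every tissue, so that a stop codon follows in exon 5. The mice were littermates of a mixed background that included C57BL/6, aged 10 to 11 weeks, on a normal diet with 12 h of light and 12 h of darkness, and the KO allele was made in embryonic stem cells of another strain. The labels name both oligo(dT) and random hexamers as primers for cDNA. The paper gives these primers for its RT-qPCR and names no primers for RNA-seq. A selection of poly(A) RNA or removal of rRNA is not given in the sources used here.

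The mitochondrial genome is a small circular DNA present in many copies per cell, and liver cells are rich in mitochondria. Its protein-coding genes encode core subunits of respiratory complexes I, III and IV, which pump protons, and of complex V, the ATP synthase. Both strands are transcribed as long precursors, and RNA-processing enzymes release the mature RNAs by cutting at the tRNAs that lie between the genes. The rRNAs and tRNAs serve the organelle's own ribosomes. Every protein needed for this transcription, processing and translation is encoded in the nucleus and imported.

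Adjacent genes overlap at several places, and these sequences are shown because reads there belong to more than 1 gene. All are on the GRCm38 mitochondrial chromosome, read on the plus strand, from the GENCODE M21 transcripts, with the bases shared by both genes in capitals. *mt-Atp8* and *mt-Atp6* share 43 bases (chrM:7927-7969) in different reading frames of the same mRNA. *mt-Nd4l* and *mt-Nd4* share 7 bases (chrM:10167-10173), again on a single mRNA. *mt-Nd5* and *mt-Nd6*, which lie on opposite strands, share 14 bases at their tails (chrM:13552-13565).
mt-Atp8/mt-Atp6, chrM:7917-7979: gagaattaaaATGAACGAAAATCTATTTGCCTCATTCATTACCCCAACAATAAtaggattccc
mt-Nd4l/mt-Nd4, chrM:10140-10200: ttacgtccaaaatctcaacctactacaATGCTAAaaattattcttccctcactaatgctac
mt-Nd5/mt-Nd6, chrM:13528-13589: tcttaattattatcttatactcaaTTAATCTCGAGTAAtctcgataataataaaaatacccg

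A stretch of nuclear DNA carries copies of some of these genes. Between chr1:24611535 and chr1:24616197 the annotation places 7 unprocessed pseudogenes on the minus strand, each sharing at least 50% of its 31-base words with a mitochondrial gene in the same orientation. Of these, 5 matched their mitochondrial gene at every aligned base, namely the copies of *mt-Nd4* (*Gm28439*), *mt-Nd4l* (*Gm10222*), *mt-Co3* (*Gm28437*), *mt-Atp6* (*Gm10925*, listed in the TPM table as *Atp6-ps*) and *mt-Co2* (*Gm28661*). *Gm28438* differed from *mt-Nd3* at a single base over 345 bp, T3C, where the base of *mt-Nd3* is given first and positions are counted from 1 at its first base. *Gm29216* covered the last 492 bp of *mt-Co1*, with 6 differences from T1056A to A1066T. The start of *mt-Nd3* (chrM:9459-9481, plus strand) and of its copy (chr1:24613097-24613119, minus strand) are printed with that base in capitals, since it is all that separates the pair.
mt-Nd3: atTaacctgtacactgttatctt
Gm28438: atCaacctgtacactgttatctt
A short read from such a stretch matches gene and copy equally well, and salmon, the authors' quantifier, divides it between them. The TPM of a gene with a copy is therefore uncertain on its own, and the values below are given alone and with the copy added.

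*Usp21* itself was at 4.07 and 6.29 TPM in WT, against 1.64 and 2.93 TPM in KO, with neither KO value reaching the lower WT value (log2 fold change -0.92, limma adjusted p = 0.464). The KO allele keeps the other exons, which salmon can still count. All 8 hepatocyte markers were above 0, and their summed level was 58174 to 74351 TPM in WT and 50879 to 60624 TPM in KO. All markers listed for other cell types were also above 0 in at least 1 library, with sums of 719 to 911 TPM for 6 red blood cell genes, 78.3 to 203 TPM for 8 Kupffer cell genes, 48.1 to 97.7 TPM for 7 stellate cell genes, 41.9 to 62.5 TPM for 7 sinusoidal endothelial genes, 14.6 to 37.9 TPM for 5 cholangiocyte genes and 3.33 to 3.65 TPM for 6 lymphocyte genes. The cholangiocyte and stellate cell sums were higher in both KO libraries than in both WT libraries, and their part in the results was not tested. The 2 nuclear-retained RNAs listed, *Malat1* and *Neat1*, had no row among the TPM values. TPM keeps no record of depth. In the CPM table, whose values are whole multiples of a single read, 148164 and 110427 reads were recovered in the WT libraries and 145306 and 102898 in the KO libraries. These are the reads kept in that table and not the sequencing depth. A library had 2814 to 3513 genes above 0 there, against 12876 to 13620 by TPM.

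Mitochondrial protein-coding genes took a large share of the TPM of these livers, where TPM is corrected for length and has no mitochondrial rRNA or tRNA rows. They held 16.3% and 11.6% of the TPM in the WT libraries and 16.5% and 15.5% in the KO libraries. WT replicate 3 stood below the other 3 libraries, which lay close together, and the groups overlapped. The mean was 13.9% ± 3.37 (SD, n = 2) in WT and 15.98% ± 0.71 (SD, n = 2) in KO, a difference of 2.03 percentage points with an exact two-sided permutation p of 0.667, where 2 libraries against 2 cannot give less than 0.333. Without WT replicate 3 the difference was -0.35 percentage points, so its direction rests on that library. When only protein-coding genes entered the total, the shares were 18.0% and 12.4% in WT and 18.2% and 16.7% in KO.

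The nuclear copies held a further 8.44% and 6.13% of the TPM in WT and 8.32% and 6.34% in KO. Genes and copies together came to 24.8% and 17.7% in WT and to 24.8% and 21.8% in KO, and WT replicate 3 again had the lowest value. A TPM share is relative to all other RNA in the library. The *Mup* genes, which encode the major urinary proteins secreted by liver and were picked for this comparison after their values had been seen, held 14.7% and 24.6% in WT and 11.3% and 21.7% in KO. The library with the highest *Mup* share was thus the library with the lowest mitochondrial share, and the part of the one in the other was not tested. In bulk liver, fewer cells of a type and less RNA per cell cannot be told apart, and the same holds for the number of mitochondria and the RNA in each.

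**Figure D1:**
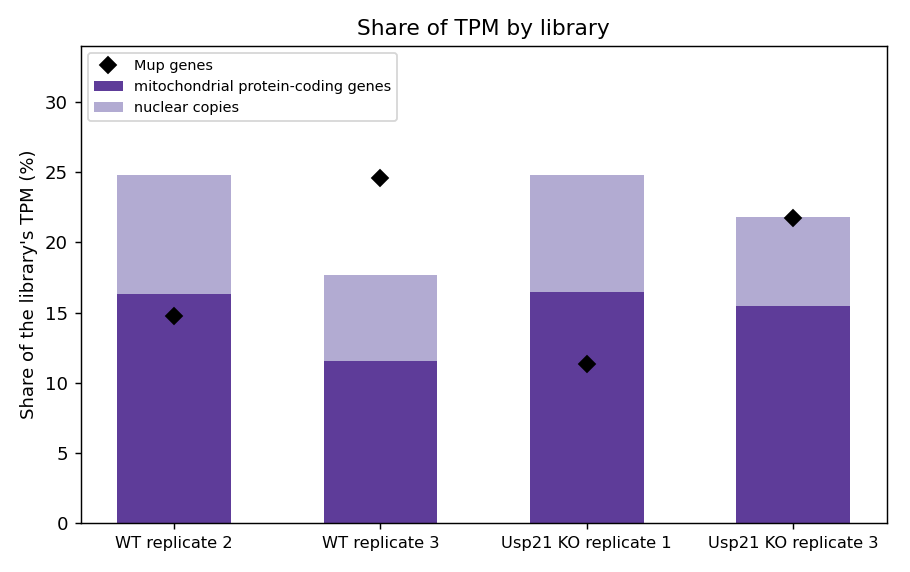
Share of each library's TPM (vertical axis, %, from 0) held by the 13 mitochondrial protein-coding genes (dark bars), by their nuclear copies (light bars stacked on top) and by the *Mup* genes (diamonds), 1 library per column. The dark bar is lowest in WT replicate 3 at 11.6%, where the diamond is highest at 24.6%.

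By mean TPM over the 4 libraries, the genes spanned a 19.0-fold range, from 33908 TPM for *mt-Atp8* to 1788 TPM for *mt-Nd6*. Between 5 and 6 of them were among the 20 most abundant genes of each library, and *mt-Atp8* ranked between 1 and 10 in every library. The order was only partly resolved. Of the 12 pairs of neighbouring genes in the ranking, 3 kept their order in all 4 libraries and 1 had ranges that did not overlap, that between *mt-Co1* and *mt-Cytb*. With copies added, 7 pairs kept their order and 2 had separate ranges. *mt-Co3* then stood above *mt-Cytb*, and *mt-Nd4l* above *mt-Nd5*, in every library. *mt-Co1*, *mt-Atp8*, *mt-Atp6*, *mt-Co2* and *mt-Co3* led the order with copies added, although *mt-Co1*, whose copy covers only part of it, stood below *mt-Atp8* and *mt-Atp6* when the sum was weighted by length (means of 31276, 33908 and 32827 TPM). The 7 complex I genes came after *mt-Cytb*.

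**Figure D2:**
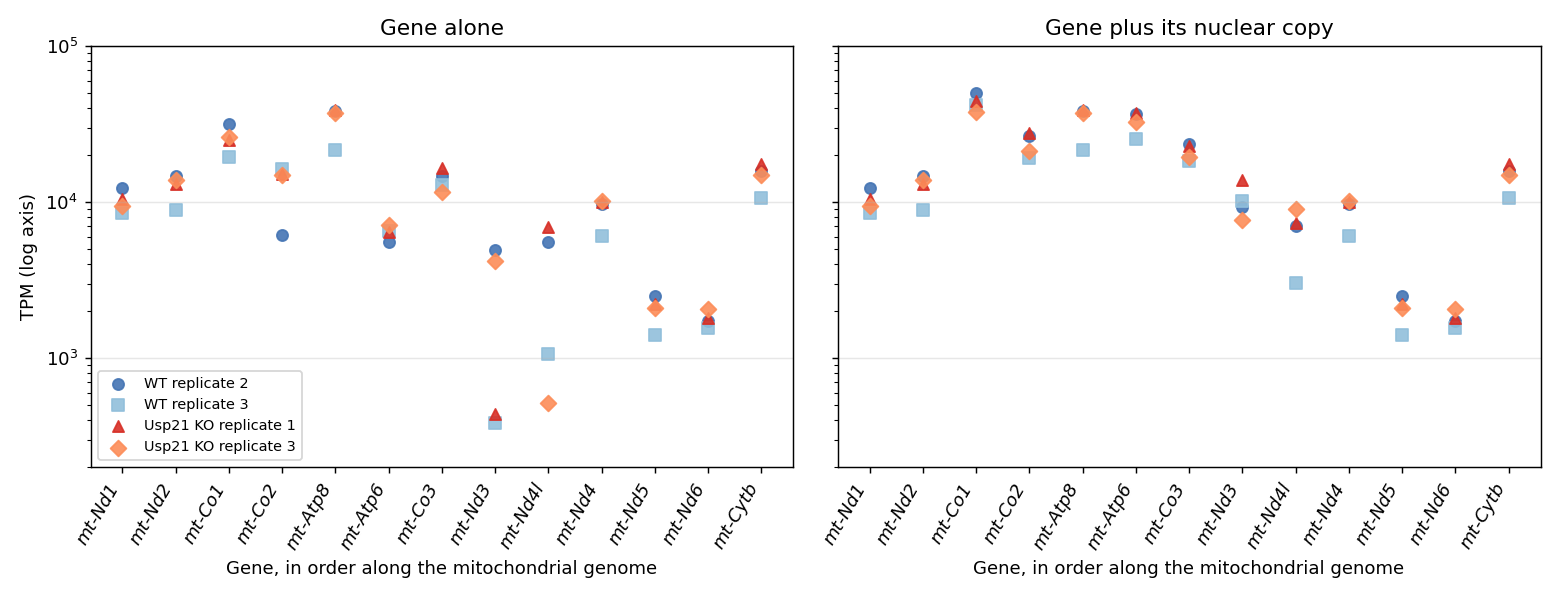
TPM (log axis) of the 13 genes in each library, in their order along the mitochondrial genome, for the gene alone (left) and for the gene plus its nuclear copy (right), with 1 symbol per library. *mt-Nd3* and *mt-Nd4l* spread over more than a factor of 10 on the left and draw together on the right, and WT replicate 3 is the lowest symbol for 9 of 13 genes on the left and 11 of 13 on the right.

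Complex I, the NADH dehydrogenase that takes electrons into the chain, has 7 of its subunits encoded here. *mt-Nd1*, a subunit of the membrane arm near the ubiquinone site, had 12234 and 8544 TPM in WT, against 10494 and 9375 TPM in KO. *mt-Nd2* had 14664 and 8917 TPM in WT, against 13070 and 13928 TPM in KO. For both genes the KO values fell between those of the WT libraries.

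*mt-Nd4*, a proton-pumping subunit of the membrane arm, had 9702 and 6066 TPM in WT, against 9957 and 10215 TPM in KO. Both KO values exceeded both WT values, but only slightly above WT replicate 2. *mt-Nd5*, the longest of the 7 complex I genes encoded here, was among the lowest genes. It had 2503 and 1413 TPM in WT, against 2220 and 2100 TPM in KO, and its groups overlapped.

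*mt-Nd6* is the only protein-coding gene on the minus strand of the reference, so it is transcribed from the opposite precursor to the other 12. It had 1721 and 1570 TPM in WT, against 1805 and 2056 TPM in KO, both KO values above both WT values. Its ratio to *mt-Nd5*, the neighbour with which it shares its tail, was 0.687 and 1.11 in WT and 0.813 and 0.979 in KO. It held 1.06% to 1.36% of the TPM of the 13 genes. Its level varied by a factor of 1.31 over the libraries, less than *mt-Nd5* with 1.77.

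The remaining complex I genes, *mt-Nd3* and *mt-Nd4l*, both small and both with a nuclear copy, varied most. *mt-Nd3* had 4946 and 384 TPM in WT, against 438 and 4225 TPM in KO, which is 12.9-fold between the highest and the lowest library. Its copy *Gm28438* went the other way, with 4332 and 9790 TPM in WT, against 13453 and 3506 TPM in KO. The sum was 9278 and 10174 TPM in WT, against 13891 and 7731 TPM in KO, a 1.80-fold spread.

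*mt-Nd4l* had 5553 and 1067 TPM in WT, against 6926 and 515 TPM in KO, a 13.5-fold spread. Its copy *Gm10222* had 1522 and 1956 TPM in WT, against 475 and 8459 TPM in KO. Together they had 7075 and 3023 TPM in WT, against 7402 and 8974 TPM in KO, a 2.97-fold spread, with WT replicate 3 apart from the rest. The ratio of *mt-Nd4l* to *mt-Nd4*, which share an mRNA and the 7 bases printed above, was 0.572 and 0.176 in WT and 0.696 and 0.0504 in KO for the genes alone. With the copies added it was 0.729 and 0.498 in WT and 0.743 and 0.879 in KO.

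Complex III, which passes electrons from ubiquinol to cytochrome c, has a single gene here, *mt-Cytb*, the cytochrome b subunit. It had 15791 and 10653 TPM in WT, against 17659 and 14937 TPM in KO. It has no annotated nuclear copy at the cut-off used here. Its groups overlapped, and WT replicate 3 was again the lowest library.

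Complex IV, cytochrome c oxidase, has its 3 catalytic core subunits encoded here. *mt-Co1*, which holds the site of oxygen reduction, had 31577 and 19485 TPM in WT, against 25087 and 26281 TPM in KO. With *Gm29216*, which matches its last 31.8%, it came to 49660 and 41818 TPM in WT, against 44306 and 37844 TPM in KO. KO replicate 3 was the lowest library in this sum, but because the copy is shorter than the gene, the sum was also weighted by length. It then gave 37335 and 26597 TPM in WT, against 31207 and 29963 TPM in KO, with WT replicate 3 the lowest as for the gene alone.

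*mt-Co2*, which receives electrons from cytochrome c, had 6170 and 16290 TPM in WT, against 15143 and 14804 TPM in KO. The low value of WT replicate 2 went with 20424 TPM on its copy *Gm28661*, the highest of the 4 libraries. Gene and copy together had 26594 and 19267 TPM in WT, against 27587 and 21156 TPM in KO, so WT replicate 2 was no longer low. *mt-Co3* had 14593 and 12886 TPM in WT, against 16470 and 11594 TPM in KO, or 23446 and 18323 TPM in WT, against 23014 and 19513 TPM in KO with *Gm28437*.

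Complex V, the ATP synthase, has *mt-Atp6*, part of the proton channel, and *mt-Atp8*, a small membrane subunit, translated from 1 mRNA. *mt-Atp8* had 38035 and 21592 TPM in WT, against 38693 and 37312 TPM in KO. *mt-Atp6* had 5576 and 6547 TPM in WT, against 6446 and 7161 TPM in KO, and its copy held 18666 to 31020 TPM, more than the gene in every library. The ratio of *mt-Atp8* to *mt-Atp6* was 6.82 and 3.30 in WT and 6.003 and 5.211 in KO for the genes alone. With the copy added it was 1.04 and 0.856 in WT and 1.04 and 1.14 in KO, near 1 in every library.

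The division between gene and copy was not steady from library to library. The mitochondrial gene held 3.16% to 54.6% of the sum for *mt-Nd3*, 5.74% to 93.6% for *mt-Nd4l*, 23.2% to 84.5% for *mt-Co2* and 46.6% to 69.4% for *mt-Co1*. It was narrower for *mt-Co3*, from 59.4% to 71.6%, and for *mt-Atp6*, from 15.2% to 26.0%. Neither genotype had a division of its own, since for *mt-Nd3* KO replicate 3 lay with WT replicate 2 and KO replicate 1 with WT replicate 3. *Gm28439*, the copy of *mt-Nd4*, was at 0 TPM in all 4 libraries.

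**Figure D3:**
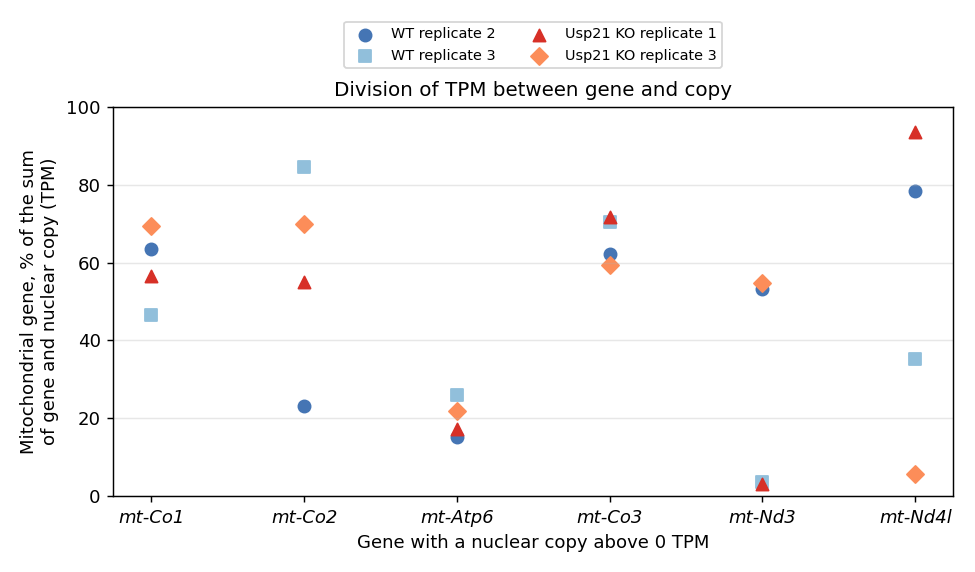
Percentage of the summed TPM of gene and nuclear copy that was assigned to the mitochondrial gene (vertical axis, 0 to 100%), for the 6 genes whose copy was above 0, with 1 symbol per library. *mt-Nd4l* runs from 5.74% to 93.6% and *mt-Nd3* from 3.16% to 54.6%, and on both the symbols of the 2 genotypes are interleaved.

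The comparison of *Usp21* KO with WT asks whether loss of the protease changed these transcripts. It was tested with limma on log2(TPM + 1), two-sided, over the 9581 genes whose mean reached 1 TPM, with Benjamini-Hochberg adjustment. Of the 13 mitochondrial genes, 0 passed an adjusted p of 0.05 and 0 passed an unadjusted p of 0.05, beside 0.0835% and 10.5% of all genes tested. The smallest adjusted p was 0.641, for *mt-Nd4*. A change of at least 2-fold was found in 0 of 13 genes, beside 3.68% of all genes. This does not show that the levels were equal, since the 95% intervals of 7 of the 13 genes reached a 2-fold change.

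Of the 13 genes, 10 had a higher and 3 a lower mean in KO, with log2 fold changes from -0.37 (*mt-Nd4l*) to 0.58 (*mt-Co2*). Their median was 0.20, beside 0.15 for all genes tested, of which 66.7% were higher in KO. Scaled to an equal upper quartile, the medians were 0.07 for the 13 genes and 0.04 for all genes, with 8 of 13 and 54.5% higher. The mitochondrial genes thus lay near the middle of all genes under either scaling, with 8 of 13 and 7 of 13 above the median of all genes. *mt-Co1* and *mt-Co3* were higher in KO as TPM and lower after upper quartile scaling.

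For the following genes no annotated nuclear copy reached the cut-off used, so no copy was added to their values. The search covered annotated transcripts only, so other copies would be missed. The bases that *mt-Atp8* shares with *mt-Atp6* also lie in the copy of *mt-Atp6*, so reads there match that copy too. *mt-Nd6* had a log2 fold change of 0.23 (standard error 0.20, 95% interval -0.26 to 0.72), *mt-Cytb* 0.32 (-0.45 to 1.10) and *mt-Atp8* 0.41 (-0.54 to 1.35). *mt-Nd1* had -0.04 (-0.76 to 0.67), *mt-Nd2* 0.24 (-0.58 to 1.05) and *mt-Nd5* 0.20 (-0.57 to 0.97). All of these intervals held 0, and those of *mt-Nd6*, *mt-Nd1* and *mt-Nd5* did not reach a 2-fold change in either direction.

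For *mt-Nd3* and *mt-Nd4l* alone the intervals were too wide to be of use, at -3.70 to 3.66 and -3.69 to 2.96. With the copies added they narrowed to -0.73 to 0.92 around 0.09 for *mt-Nd3*, and to -0.24 to 1.87 around 0.82 for *mt-Nd4l*, whose sign turned. That of *mt-Nd4l* was the largest of the 13 with copies added (limma adjusted p = 0.515), and without WT replicate 3 it was 0.20. *mt-Co2* moved from 0.58 to 0.09 and *mt-Co1* from 0.05 to -0.15. With copies added, 0 of 13 genes passed the adjusted or the unadjusted threshold and 0 changed by at least 2-fold.

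The groups did not overlap for 2 of the 13 genes, *mt-Nd4* and *mt-Nd6*, both higher in KO, and for *mt-Nd4l* as well with its copy added. Among all genes tested, 34.4% had both KO values above the higher WT value and 10.9% had them below the lower. The 13 genes are cut from shared precursors and were not independent of each other. WT replicate 3 was the lowest library for 9 of them, and leaving it out turned the sign of 5, *mt-Nd2*, *mt-Co1*, *mt-Atp8*, *mt-Co3* and *mt-Nd5*. Without it 3 genes passed 2-fold and without WT replicate 2 it was 1. Without either KO library it was 2. *mt-Nd3*, *mt-Nd4l* and *mt-Co2* were the genes whose values moved most, with log2 fold changes from -1.86 to 1.82, from -2.24 to 1.51 and from -0.12 to 1.28 over these fits.

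**Figure D4:**
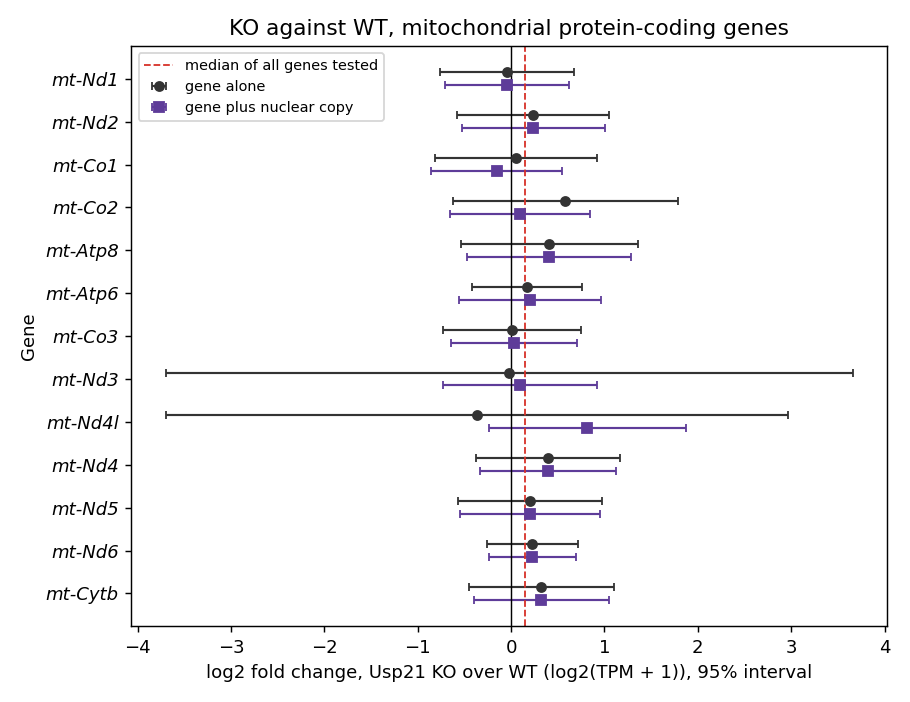
Log2 fold change of *Usp21* KO over WT on log2(TPM + 1) with its 95% interval from limma (horizontal axis), for each gene alone (circles) and with its nuclear copy added (squares), with the median of all genes tested as a dashed line at 0.15. All intervals hold 0, and those of *mt-Nd3* and *mt-Nd4l* shrink once the copy is added.

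Complex IV genes held 5.24% and 4.88% of the TPM in WT and 5.68% and 5.28% in KO, and complex I genes 5.14% and 2.80% in WT and 4.50% and 4.25% in KO. Complex V genes held 4.37% and 2.82% in WT and 4.52% and 4.46% in KO. For complexes IV and V both KO shares exceeded both WT shares by a small margin, which was not so with copies added. *mt-Cytb*, for complex III, held 1.58% and 1.07% in WT and 1.770% and 1.497% in KO. With copies added, complex IV came to 9.99% and 7.96% in WT and 9.51% and 7.87% in KO, and complex V to 7.48% and 4.69% in WT and 7.62% and 7.01% in KO. For these shares no exact permutation p was below 0.333, the smallest the design allows.

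The mitochondrial rRNA genes *mt-Rnr1* (12S rRNA) and *mt-Rnr2* (16S rRNA) were nearly absent from the CPM table. Together they had 2 and 7 recovered reads in WT and 3 and 6 in KO, out of the library totals given above. These are shares of 0.00135% and 0.00634% in WT and 0.00206% and 0.00583% in KO, and their exact 95% binomial intervals, which cover counting error only, lay between 0.000163% and 0.0131%. *mt-Rnr1* had 1 read in each WT library and 0 in each KO library, which is under the 3 reads that a count of 0 allows. No difference between the genotypes was detectable from so few reads. Both genes lie on the plus strand, and the strand setting of the counting is not given. As described below, these counts are therefore not given as levels of the rRNAs.

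The 22 tRNA genes had 703 and 455 recovered reads in WT and 916 and 635 in KO. This was 0.474% (exact 95% binomial interval 0.440% to 0.511%) and 0.412% (0.375% to 0.452%) of the reads in WT, and 0.630% (0.590% to 0.672%) and 0.617% (0.570% to 0.667%) in KO. Both KO values exceeded both WT values. These intervals cover counting error only and leave out the variation between mice. Nearly all of these reads lay on minus-strand tRNA genes. As described below, the counts are not given as levels of the tRNAs. The exact two-sided permutation p was 0.333, the smallest possible here, and the difference was 0.181 percentage points, or 0.149 to 0.212 when single libraries were left out.

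The tRNA reads came from few genes. *mt-Te* (glutamic acid tRNA) had 333 and 162 reads in WT and 439 and 321 in KO, and *mt-Tq* (glutamine tRNA) had 231 and 177 in WT and 325 and 208 in KO. *mt-Tp* (proline tRNA) had 63 and 74 reads in WT and 71 and 39 in KO, and *mt-Ty* (tyrosine tRNA) had 50 and 18 in WT and 36 and 42 in KO. The library totals differed, so these genes are also given as CPM. *mt-Te* had 2556 and 1486 CPM in WT and 2932 and 2961 in KO, and *mt-Tq* 1773 and 1624 in WT and 2171 and 1918 in KO. *mt-Tp* had 484 and 679 CPM in WT and 474 and 360 in KO, and *mt-Ty* 384 and 165 in WT and 240 and 387 in KO. *mt-Ta* (alanine tRNA) had 11 to 20 reads, and 12 tRNA genes had 0 reads in all 4 libraries. The *mt-Tq* gene (chrM:3772-3842, minus strand) and its neighbour *mt-Ti* (isoleucine tRNA, chrM:3706-3774, plus strand), which had 4 and 4 reads in WT and 12 and 6 in KO, are printed as a pair of adjacent genes on opposite strands with very different counts, each read 5′ to 3′ on its own strand.
mt-Tq: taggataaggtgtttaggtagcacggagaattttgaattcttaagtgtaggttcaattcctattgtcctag
mt-Ti: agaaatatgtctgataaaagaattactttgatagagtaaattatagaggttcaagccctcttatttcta

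Among the tRNA genes, most reads lay on the minus strand. The 8 tRNA genes on the minus strand held 695 and 447 of the tRNA reads in WT and 896 and 622 in KO, while the 14 on the plus strand held 8 and 8 in WT and 20 and 13 in KO. Of the plus-strand tRNA genes, 11 had no read in any library, as did 1 of the minus-strand genes, *mt-Ts1* (serine tRNA). *mt-Nd6*, the minus-strand protein-coding gene and the lowest of the 13 by TPM, had 11317 and 8381 reads in WT and 12274 and 6596 in KO, the most of the 37 genes. This was 7.64% and 7.59% of all recovered reads in WT and 8.45% and 6.41% in KO. *mt-Atp8*, the highest by TPM, had 0 reads in all 4 libraries.

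Among the plus-strand protein-coding genes, *mt-Nd5* had the most reads, with 4622 and 4104 in WT and 6092 and 4554 in KO, and *mt-Nd4* had 240 to 322. Together *mt-Nd5* and *mt-Nd6* held 90.6% to 92.9% of the mitochondrial reads of a library. *mt-Co2*, *mt-Atp8*, *mt-Atp6*, *mt-Co3* and *mt-Nd4l* were at 0 in all libraries, and *mt-Nd3* had 1 read in WT replicate 3 and 0 elsewhere. All but *mt-Atp8* of these have an annotated nuclear copy over at least 98.99% of their length. The copies of *mt-Co2*, *mt-Atp6*, *mt-Co3* and *mt-Nd4l* were at 0 as well, and *Gm28438*, the copy of *mt-Nd3*, had 7.68 and 18.3 CPM in WT and 0 and 18.4 CPM in KO.

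Zeros were also common among abundant nuclear genes. Of 804 nuclear genes averaging 100 TPM or more, 525 (65.3%) were listed at 0 reads. Of 198 nuclear genes with a mean of at least 50 recovered reads, 67 (33.8%) overlapped a gene of at least 100 TPM on the opposite strand, compared with 42 of 50000 (0.084%) of those listed at 0. The strand setting of the counting and whether the library kit keeps strand are not given in the sources used here. Genes with many reads thus lay opposite an abundant gene far more often than genes at 0. Which strand the counted reads came from was not tested, so the counts are not given as levels of the listed genes.

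**Figure D5:**
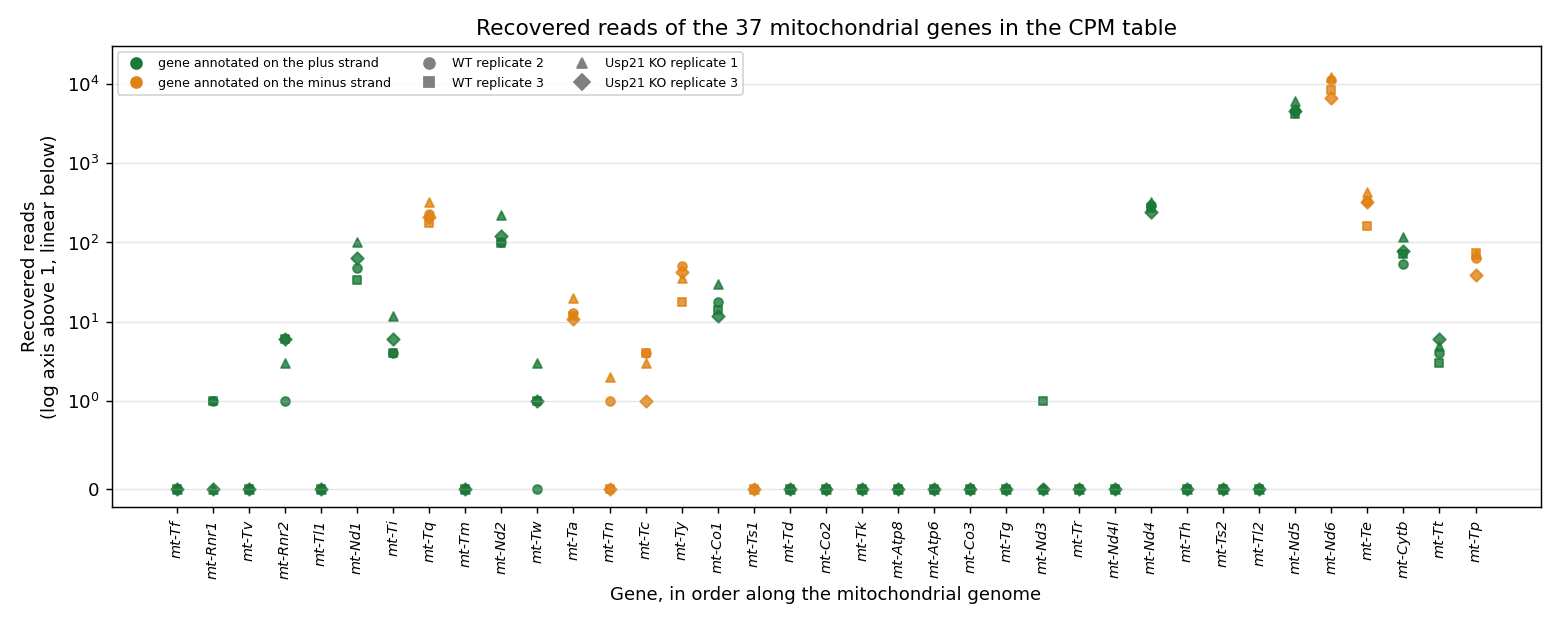
Recovered reads (vertical axis, logarithmic above 1 and linear below) of the 37 mitochondrial genes in their order along the genome, coloured by the annotated strand, with 1 symbol per library. *mt-Nd6* and *mt-Nd5* stand highest, the minus-strand tRNA genes *mt-Te* and *mt-Tq* follow, and most plus-strand tRNA genes sit at 0.

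Between genotypes, 19 of the 37 genes could be tested in the CPM table, and 0 passed an adjusted p of 0.05 with limma on log2(CPM + 10), beside 0.0319% of the 3137 genes tested there. With edgeR and with DESeq2 on the recovered reads the count was also 0, beside 0.414% and 0.0319% of all genes. At an unadjusted p of 0.05 there were 2 by limma, 2 by edgeR and 0 by DESeq2, beside 7.78%, 6.31% and 0.701% of all genes. The 2 genes were *mt-Nd1*, with 48 and 34 reads in WT and 101 and 64 in KO, and *mt-Nd2*, with 100 and 99 in WT and 224 and 122 in KO (limma adjusted p = 0.496 for both). *mt-Te* had a log2 fold change of 0.59 (standard error 0.29, limma adjusted p = 0.519). Lower in KO were *mt-Tp*, at -0.46 (standard error 0.30, limma adjusted p = 0.741), and *mt-Tc* (cysteine tRNA), at -0.86 from 1 to 4 reads a library (limma adjusted p = 0.784). The other tRNA genes tested had a higher mean in KO.

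Nuclear genes that make, process and use mitochondrial RNA were taken from 4 lists. That of ribosomal proteins took every symbol starting with Mrpl or Mrps and a digit, pseudogenes left out. The others were written from general knowledge. Of 38 symbols listed for mitochondrial transcription and RNA processing, which can hold an older and a newer name of a gene, 36 were tested. Of these, 0 passed the adjusted threshold. Their median log2 fold change was 0.26, beside 0.15 for all genes. In KO 30 were higher and 6 lower, beside 66.7% of all genes higher. A 2-fold change was reached by 2, both higher, beside 3.68% of all genes in either direction. The list as a whole was not tested. At an unadjusted p of 0.05 there were 3 higher and 1 lower, beside 8.45% and 2.04% of all genes, a like share.

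*Polrmt*, the mitochondrial RNA polymerase, had 5.10 and 11.7 TPM in WT, against 14.9 and 5.60 TPM in KO. *Tfam*, which packages mitochondrial DNA and starts transcription with it, had 15.3 and 27.7 TPM in WT, against 18.6 and 31.9 TPM in KO. Both genes had overlapping groups. *Lrpprc*, which keeps mitochondrial mRNAs stable, had 11.7 and 13.9 TPM in WT, against 16.6 and 16.7 TPM in KO, at a log2 fold change of 0.36 (standard error 0.19, limma adjusted p = 0.524). Its partner *Slirp* had 28.6 and 39.5 TPM in WT, against 45.1 and 30.7 TPM in KO, and its groups overlapped.

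*Fastkd2*, an RNA-binding protein of the mitochondrial matrix needed for the 16S rRNA, showed the largest change of the list. It had 4.0004 and 4.027 TPM in WT, against 13.6 and 9.64 TPM in KO, at a log2 fold change of 1.31 (standard error 0.25, limma adjusted p = 0.373). *Trmt10c* and *Hsd17b10* encode partners in the enzyme that cuts the 5′ ends of mitochondrial tRNAs. *Trmt10c* had 3.94 and 3.85 TPM in WT, against 10.1 and 7.20 TPM in KO (log2 fold change 0.96, limma adjusted p = 0.464). *Hsd17b10*, also an enzyme of isoleucine and fatty acid breakdown, had 236 and 179 TPM in WT, against 145 and 114 TPM in KO (log2 fold change -0.67, limma adjusted p = 0.464). The pair thus pointed in opposite directions, and neither passed the adjusted threshold.

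*Tfb2m*, the transcription factor that opens mitochondrial promoters with the polymerase, had 7.79 and 7.45 TPM in WT, against 10.9 and 12.5 TPM in KO (log2 fold change 0.56, limma adjusted p = 0.464). *Mrm1*, a methyltransferase of the 16S rRNA, had 0.390 and 0.499 TPM in WT, against 5.25 and 0.414 TPM in KO, so that its mean change of over 2-fold came from KO replicate 1 alone.

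The other lists were fitted in the same way. Of 10 tested genes of mitochondrial DNA maintenance, 6 were higher and 4 lower, with a median of 0.15. The mitochondrial tRNA synthetase list also holds some tRNA amidotransferase genes. Of its 20 tested genes, 9 were higher and 11 lower, with a median of -0.04. Of 78 mitochondrial ribosomal protein genes, all tested, 42 were higher and 36 lower, with a median of 0.05. In each of these lists 0 genes passed the adjusted threshold and 0 changed by at least 2-fold, and 1 was higher at an unadjusted p of 0.05. Over all genes 3.68% changed 2-fold, 8.45% were higher at that unadjusted p and 66.7% had a higher mean in KO, so 1 gene of 10, 20 or 78 is a like share or a lower one. The genes were *Tk2*, a thymidine kinase that supplies mitochondrial DNA precursors (7.85 and 6.37 TPM in WT, 10.6 and 11.1 TPM in KO), *Rars2*, the arginyl-tRNA synthetase (3.20 and 3.42 TPM in WT, 4.87 and 9.20 TPM in KO), and *Mrps6*, a protein of the small ribosomal subunit (8.92 and 9.85 TPM in WT, 16.9 and 14.1 TPM in KO). For all 3 the KO libraries were above the WT libraries, which was also so for 34.4% of all genes.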

How the data were processed

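Liver RNA of 2 WT and 2 *Usp21* KO mice was analysed, grouped by the labels. The authors estimated transcript abundance with salmon and deposited TPM per gene, and a second deposited table holds log2 of TPM + 1 (largest difference from the recomputed value 5.3e-09). Per the labels the authors also counted reads with HTSeq on mm10 and deposited TMM-normalized CPM, treated here as a scaled signal. Because 100% of its values were whole multiples of a single read (tolerance 0.02 reads), reads were recovered. Versions and strand settings are not given in the sources used here. The 4 deposited tables hold 0 per-sample columns that were not used. No sample dates or batches were given. The replicates were separate mice, littermates per the study's methods, and intervals on reads cover counting error only.

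Genes averaging 1 TPM or more were tested with limma 3.58.1 (trend, prior degrees of freedom 3.62) in R 4.3.3. Fold changes on log2(TPM + 1) understate those of low genes. Shares were compared by exact permutation. The rRNA and tRNA shares had been planned on TPM and were computed from recovered reads, since these genes had no row among the TPM values. Nuclear copies were found in the GENCODE M21 transcripts as transcripts sharing at least 50% of their 31-base words with a mitochondrial gene. Another 10 transcripts with a lower share were not counted as copies, and sequence outside annotated transcripts was not searched. The genes named were all mitochondrial genes, their nuclear copies, *Usp21*, the cell type markers, *Polrmt*, *Tfam*, *Lrpprc* and *Slirp*, and, of each nuclear list, at most 6 genes with a 2-fold change or an unadjusted p under 0.05. The members, lists and tests were chosen with earlier results of these data known. Alternatives were other pseudocounts, filters and scalings, no moderation, the CPM values, edgeR 4.0.16 and DESeq2 1.42.0, copies added, and each library left out. The scripts were tested on simulated data.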

Additional observations from a re-analysis of the deposited data

How the results depend on the processing

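No mitochondrial gene passed the adjusted threshold under any alternative run on all 4 libraries. The CPM values, edgeR and DESeq2 could test only 7 of the 13 protein-coding genes. As those counts cannot be read as levels of the listed genes, these runs do not test such levels. No paired analysis was possible because the labels give neither a pairing nor the litter of each mouse. A 2-fold change was reached by 0 of 13 genes under the other pseudocounts, filters and scalings, and by 1 to 3 when single libraries were left out (0 to 1 with copies added). Among the genes of mitochondrial transcription and RNA processing, 2 had changed 2-fold. It was 4 at a pseudocount of 0.1 and 0 at a pseudocount of 5, because the threshold is on log2(TPM + pseudocount). It was 1 among genes averaging 5 TPM or more, where 24 genes rather than 36 were tested. Upper quartile scaling gave 1 and scaling to nuclear genes gave 3, with 36 tested in both. For the rest the cause was not tested.

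Signs that turned were as follows. The CPM table, whose counts cannot be read as levels of the listed genes, gave other signs by limma, edgeR and DESeq2, where *mt-Nd1* had log2 fold changes of 0.88, 0.90 and 0.88, *mt-Nd4* -0.14, -0.14 and -0.16, and *mt-Nd6* -0.21, -0.19 and -0.22. Upper quartile scaling gave -0.079 for *mt-Co1* and -0.12 for *mt-Co3*. Scaling to the mitochondrial total gave -0.17 for *mt-Co1*, -0.047 for *mt-Atp6*, -0.21 for *mt-Co3* and -0.017 for *mt-Nd5*. Scaling to nuclear genes gave 0.015 for *mt-Nd3*. Adding copies gave -0.15 for *mt-Co1*, 0.093 for *mt-Nd3* and 0.82 for *mt-Nd4l*, and weighting the sum by length, an alternative chosen after seeing the data, gave -0.043, 0.093 and 0.82. When single libraries were left out, values ran from -0.30 to 0.22 for *mt-Nd1*, -0.12 to 0.60 for *mt-Nd2*, -0.30 to 0.40 for *mt-Co1*, -0.12 to 1.28 for *mt-Co2*, -0.0015 to 0.82 for *mt-Atp8*, -0.24 to 0.26 for *mt-Co3*, -1.86 to 1.82 for *mt-Nd3*, -0.21 to 0.61 for *mt-Nd5* and -2.24 to 1.51 for *mt-Nd4l*. A lone sample left in a group was assumed to vary like the other group.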
